A study of Mus musculus with 3 samples.

Results

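The genes described here are 9 genes known to respond to bone morphogenetic protein (BMP) signalling: the inhibitors of DNA binding Id1, Id2, Id3 and Id4, the homeobox genes Msx1 and Msx2, the inhibitory Smads Smad6 and Smad7, and the receptor decoy Bambi. They were taken by gene name from the gene probes of a mouse whole-genome Agilent array. The array held 14 probes for them, printed in 41 spots, among 41174 probes for 28578 gene names. All 9 had a probe well above background on at least 1 array, as had 21653 genes in all, and these are the genes compared below. RNA came from mouse E14.1 embryonic stem (ES) cells, an established line, and from cells differentiated from them in serum-free medium with N2 and B27 supplements. ES cells on gelatin (day 0) were kept with 10 ng/ml BMP4 and 1000 U/ml leukaemia inhibitory factor (LIF). Cells labelled definitive endoderm (day 5) were grown on collagen IV with 30 ng/ml activin A, and both BMP4 and LIF were left out. Cells labelled early hepatic (day 7) had 2 further days with activin A at 30 ng/ml, BMP4 at 30 ng/ml and basic FGF at 10 ng/ml. BMP4 was thus in the medium on days 0 and 7 and absent on day 5, while activin A, LIF, basic FGF, the coating and the time in culture differed as well. The effect of BMP4 cannot be told apart from theirs in this design.

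BMP ligands bind type I and type II serine/threonine kinase receptors, which phosphorylate Smad1, Smad5 and Smad9. These join Smad4 and bind DNA, and the Id genes are among the best known direct targets. Id proteins have a helix-loop-helix but no DNA-binding region, and they hold E proteins away from tissue-specific partners. Smad6, Smad7 and Bambi are induced by the pathway they dampen. BMP4 together with LIF is a classic serum-free combination for keeping mouse ES cells undifferentiated, and BMP from neighbouring mesenchyme is needed for liver specification in the embryo.

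Each day was measured on 1 array, so there was no replicate, no test across samples and no p-value. Levels are log2 processed signals minus the array's own 75th percentile, so that a level of 0 is that percentile (1564 intensity units on day 0, 2051 on day 5 and 2053 on day 7). Between 70.9% and 71.7% of gene spots were well above background and none was saturated. The 3 arrays shared 1 slide. The only error that could be measured was that between spots of 1 probe on 1 array. Probes printed 10 times had a median SD of 0.0801, 0.0758 and 0.0773 (log2, on days 0, 5 and 7), and 2 single spots of this precision would give a difference with an SD of 0.110. That spread leaves out culture, RNA and labelling. A fold limit of 2 was used for calls, and in bulk RNA fewer cells of a type and less RNA per cell cannot be told apart. The transcription factor Foxa2, around which the series was planned, had levels of -4.22, 4.29 and 3.98 on days 0, 5 and 7 (10 spots), which put days 5 and 7 364-fold and 293-fold over day 0.

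Promoter letters are shown for 4 members: Id2, Id4 and Id3 because they hold a Smad-type motif, and Msx2 because it had the largest difference of the members between days 5 and 7, with neither string in this window. They are the 250 bases before the transcription start from RefSeq's GRCm38.p6 table, which is another build than the mm9 used for the probes below. The table held 6 of the 9 members (Id2, Id3, Id4, Msx1, Msx2 and Smad6). Capitals mark GGCGCC, a GC-rich letter string bound by BMP Smads, or CAGAC, the Smad box, with its reverse complement GTCTG, so both strands were searched and the motifs share no overlap.
Id2, chr12:25096093-25096342, minus strand: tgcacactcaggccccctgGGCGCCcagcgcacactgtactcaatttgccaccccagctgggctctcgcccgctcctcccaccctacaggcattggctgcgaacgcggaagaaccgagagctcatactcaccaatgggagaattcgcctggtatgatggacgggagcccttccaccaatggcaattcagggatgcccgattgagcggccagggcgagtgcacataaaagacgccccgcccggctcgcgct
Id4, chr13:48260866-48261115, plus strand: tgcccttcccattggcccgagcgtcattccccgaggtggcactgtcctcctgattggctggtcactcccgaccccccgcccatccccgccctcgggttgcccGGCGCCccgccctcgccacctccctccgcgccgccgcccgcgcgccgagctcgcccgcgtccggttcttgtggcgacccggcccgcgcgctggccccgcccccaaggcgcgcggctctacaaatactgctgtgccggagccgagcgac
Id3, chr4:136143572-136143821, plus strand: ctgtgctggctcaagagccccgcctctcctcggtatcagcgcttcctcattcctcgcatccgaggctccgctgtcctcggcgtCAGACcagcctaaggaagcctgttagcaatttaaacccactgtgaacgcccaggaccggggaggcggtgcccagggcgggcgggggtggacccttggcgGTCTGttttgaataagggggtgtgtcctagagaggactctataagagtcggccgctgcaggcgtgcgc
Msx2, chr13:53472781-53473030, minus strand: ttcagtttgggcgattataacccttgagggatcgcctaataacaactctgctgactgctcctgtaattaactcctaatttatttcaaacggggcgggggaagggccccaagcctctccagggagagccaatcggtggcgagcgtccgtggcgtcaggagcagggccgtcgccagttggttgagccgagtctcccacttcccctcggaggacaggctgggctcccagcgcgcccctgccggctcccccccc

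GGCGCC was present in 2 of the 6 promoters, with its first base 231 bases before the start in Id2 and 148 bases before it in Id4. The Smad box was present in 1, Id3, with first bases 167 and 68 bases before the start. Msx1, Msx2 and Smad6 held neither string. Of all 32851 promoter windows of this length in the table, 9.59% held GGCGCC and 42.2% held CAGAC or GTCTG. The members' windows were GC-rich, between 61.6% (Msx2) and 75.6% (Id4) G and C. Among the 9178 windows with at least 60% G and C, the shares were 26.1% and 38.6%. A match is a description of the letters only, and the 2 genes with GGCGCC did not share a course over the 3 days, as shown next.

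The 4 Id genes followed 3 different courses. Id1, the Id gene most often used as a readout of BMP signalling, had levels of 3.97 on day 0, 3.43 on day 5 and 4.15 on day 7 (probe at chr2:152563046-152563105, mm9). It was therefore 1.45-fold lower on day 5 than on day 0 and 1.64-fold higher on day 7 than on day 5, both within the fold limit. A second Id1 probe, which shares 50 of its 60 bases with the first and so is no independent measure, gave 3.82, 3.48 and 4.17. Processed signals of the first probe were 24442, 22153 and 36480 units, and none of these spots was saturated. Id1 thus had its lowest level on the day without BMP4, and the dip was small. With the background refitted by normexp, limma's model of a normal background under an exponential signal, the day 5 minus day 0 difference was 0.37 in place of -0.53. That refit placed the day 0 background mean at -1242 units, where the median signal after subtraction was 121 units, so its values are to be read with care.

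Id2, which in mouse ES cells and embryos is a common BMP target, had the course that followed the BMP4 in the medium most closely. Its levels were 2.86 on day 0, 0.63 on day 5 and 2.75 on day 7 (chr12:25778904-25778963, mm9). Day 5 was 4.69-fold lower than day 0 and 4.37-fold lower than day 7, and days 0 and 7 differed by 1.07-fold. A second probe that shares no base with it gave 1.25, -1.08 and 1.54. The 60 bases of this second probe span 348 bases of the genome (chr12:25780183-25780530, mm9), a longer stretch than the probe itself. Both probes put day 5 lowest, with differences of -2.23 and -2.33 from day 0. They differed in sign for day 7 against day 0, at -0.10 and 0.29, as did quantile normalisation (0.01) and the authors' deposited table (0.06), so the order of days 0 and 7 was not settled.

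Id3, which is often induced together with Id1, did not dip on day 5. Its levels were 1.84, 3.20 and 3.38 on days 0, 5 and 7. The single probe spans chr4:135700075-135700249 in mm9, 175 bases for 60 probe bases. Day 5 was 2.57-fold and day 7 2.92-fold higher than day 0. Days 5 and 7 differed by 0.18 (log2), against 0.110 for the spread of 2 single spots. Id3 was thus higher in both differentiated samples, with and without BMP4 in the medium.

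Id4, known mainly from neural precursors and the testis, was high only in the ES cells. Its levels were 1.34 on day 0, -3.10 on day 5 and -2.74 on day 7 (chr13:48358668-48358727, mm9). Day 5 was 21.7-fold lower than day 0 and day 7 was 17.0-fold lower. The second Id4 probe, at chr13:48359180-48359239, gave -0.59, -4.53 and -4.61, differences of -3.93 and -4.02 from day 0. The return of BMP4 on day 7 went with 0.36 on the first probe and -0.08 on the second, so the probes did not share a sign there. All 6 spots were well above background.

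The Msx genes encode homeobox repressors of limb, craniofacial and extraembryonic tissues, and they parted on day 5. Msx2 was measured in 10 spots per array. Its levels were -2.33 ± 0.043 on day 0, -2.51 ± 0.063 on day 5 and 2.16 ± 0.056 on day 7 (SD over spots of 1 array, n = 10 spots; chr13:53563333-53563392, mm9). Signals went from 311 and 361 units on days 0 and 5 to 9176 units on day 7. Day 7 was 25.4-fold above day 5 and 22.5-fold above day 0, while days 0 and 5 differed by 1.13-fold. Msx2 was thus high on day 7 alone. The low values hung on the background model: with normexp refitted, day 5 was below day 0 by more than the limit, at -1.62 (log2), and day 7 minus day 0 was 2.65 in place of 4.49, while day 7 minus day 5 was 4.27.

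Msx1 was already higher on day 5. Levels of its probe at chr5:38212305-38212364 (mm9) were -2.46 on day 0, -0.18 on day 5 and 0.01 on day 7, so that days 5 and 7 were 4.89-fold and 5.56-fold above day 0. A second Msx1 probe, named by another accession and ending 5 bases away, was printed 10 times. It gave -5.83 ± 0.223 on day 0 (9 spots, 1 left out as an outlier), -2.48 ± 0.080 on day 5 and -2.19 ± 0.087 on day 7 (SD over spots, n = 10 spots). Its differences from day 0 were larger, at 3.35 and 3.64, against 2.29 and 2.48 on the first probe. Day 0 signals were low on both (283 and 27.8 units), and with normexp refitted the first probe's differences were 0.66 and 0.85, under the fold limit. From day 5 to day 7 Msx1 moved by 0.19 and 0.29 on the 2 probes, where Msx2 moved by 4.67.

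**Figure D1:**
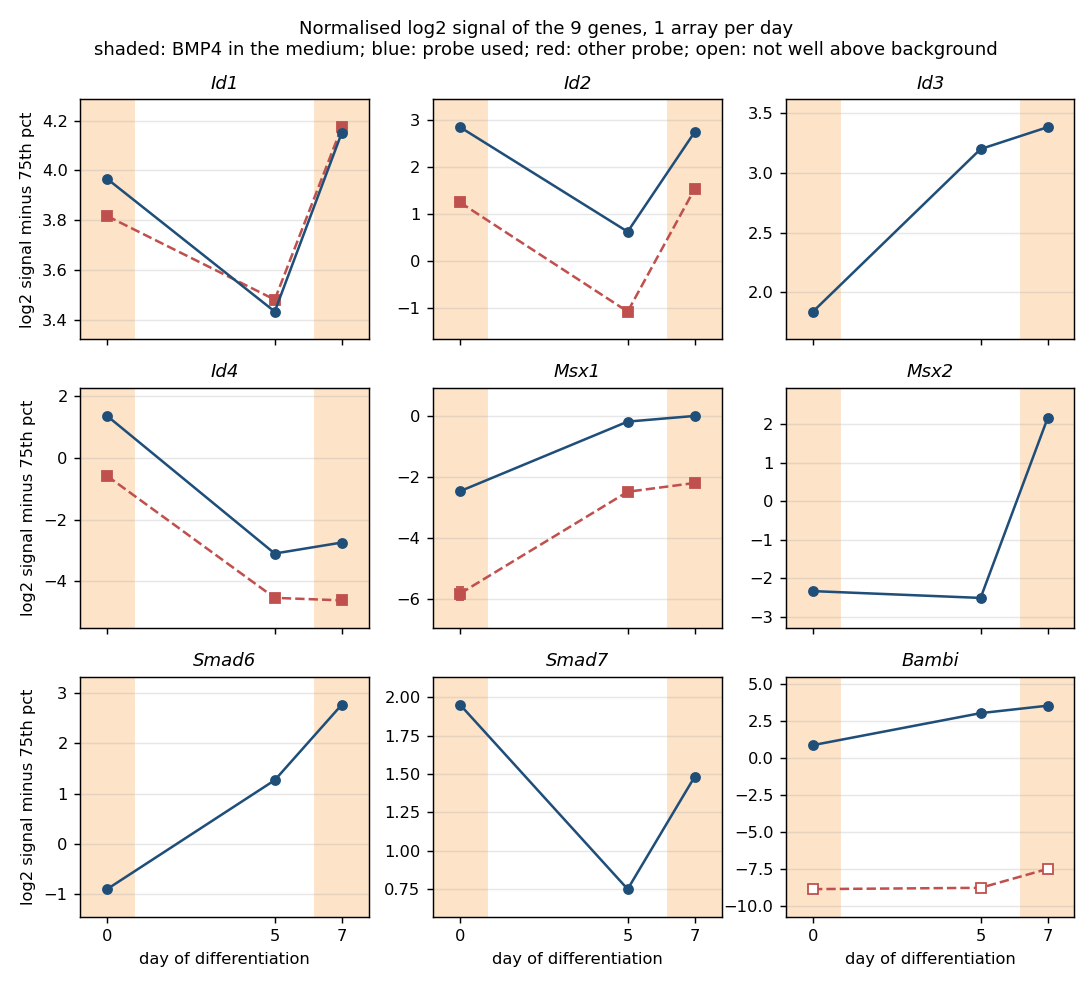
Levels of the 9 genes (log2 processed signal minus each array's 75th percentile, vertical axis, with a separate range in each panel) on days 0, 5 and 7 (horizontal axis), 1 array per day. Blue is the probe used, red dashed a second probe, open points are not well above background, bars are the SD of 10 spots on 1 array where a probe was printed 10 times, and shading marks days with BMP4 in the medium. Id2 was lowest on day 5 on both probes, Id4 was high on day 0 alone and Msx2 on day 7 alone.

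The inhibitors of the pathway also parted. Smad6, which competes with Smad4 for activated Smad1 and is largely specific to BMP signalling, had a higher level at each later day: -0.91 on day 0, 1.27 on day 5 and 2.77 on day 7 (chr9:63801378-63801437, mm9). It was 4.52-fold above day 0 on day 5, 12.9-fold on day 7, and 2.84-fold higher on day 7 than on day 5. Smad7, which blocks receptors of both the BMP and the activin/TGF-beta branches, was lowest on day 5, with levels of 1.95, 0.75 and 1.48 (chr18:75555371-75555430, mm9). Day 5 was 2.30-fold below day 0. Day 7 was 1.66-fold above day 5 and 1.38-fold below day 0, both within the fold limit. With normexp refitted, the Smad7 difference between days 5 and 0 was -0.65 in place of -1.20, within the limit, and that of Smad6 was 1.42.

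Bambi, a receptor-like protein without a kinase, resembled Smad6 and Msx1 in being lowest in ES cells. Its levels were 0.86 ± 0.065 on day 0, 3.02 ± 0.063 on day 5 and 3.53 ± 0.067 on day 7 (SD over spots of 1 array, n = 10 spots; chr18:3512455-3512514, mm9). Day 5 was 4.47-fold and day 7 6.33-fold above day 0, and day 7 was 1.42-fold above day 5. A second Bambi probe, at chr18:3516008-3516067, was not well above background on any array and gave no fold. The difference between days 5 and 7, 0.50, was larger than the spot spread and smaller than the fold limit.

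From day 0 to day 5 the medium lost BMP4 and LIF and gained activin A. Msx1, Smad6, Bambi and Id3 were past the limit upwards on day 5, between 2.57-fold and 4.89-fold, and Id4, Id2 and Smad7 downwards, between 2.30-fold and 21.7-fold. Id1 and Msx2 were within the limit. That is 4 of 9 higher, where 16.5% of all genes were, and 3 of 9 lower, where 16.1% were. The members' median difference was -0.18 and that of all genes -0.11 (log2). The members split in both directions. With normexp refitted, Msx1 and Smad7 were within the limit and Msx2 passed it downwards, so the count lower was again 3 but with Msx2 in place of Smad7, and the count higher was 3. Only 0.716% of all genes had a lower difference than Id4, and 4.78% a lower one than Id2, while 5.58% had a higher one than Msx1.

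From day 5 to day 7 BMP4 came back into the medium together with basic FGF, and activin A was kept. Msx2 (25.4-fold), Id2 (4.37-fold) and Smad6 (2.84-fold) were past the limit upwards, 3 of 9 members, against 5.97% of all genes. None of the 9 was at least 2-fold lower, against 8.38% of all genes. The other members lay between 0.18 and 0.73 (log2). The members' median was 0.72 and that of all genes -0.06, and at least 75% of all genes had a lower difference than each of the 9. With the second probe of Id4 in its place, 8 of 9 were above 0. With normexp refitted, 4 of 9 passed the limit upwards, against 29% of all genes, and none downwards, against 2.04%. The members' median was then 0.62 and that of all genes 0.19, so the contrast with all genes was smaller. In the setting used Msx2 stood far out, with 0.203% of genes having a higher difference. For Id2 this share was 1.99%, for Smad6 3.54%, for Smad7 8.48% and for Id1 8.62%. The shares for Msx1 and Id3 were 24.4% and 24.6%.

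Days 0 and 7 both had BMP4, at 10 and 30 ng/ml. Msx2 (22.5-fold), Smad6 (12.9-fold), Bambi (6.33-fold), Msx1 (5.56-fold) and Id3 (2.92-fold) were past the limit upwards on day 7, 5 of 9 members against 16.2% of all genes. Id4, at 17.0-fold lower, was the only member past the limit in the other direction, against 19.1% of all genes. Id1, Id2 and Smad7 differed by 1.14-fold to 1.38-fold. The members' median was 1.55 against -0.19 for all genes. Under the normexp refit 4 of 9 passed upwards, with Msx1 within the limit at 0.85 (log2), and Id4 alone passed downwards. This comparison and that of days 5 and 0 share the day 0 array, so its error enters both. With normexp refitted, 44.2% of all genes passed the limit downwards and 8.07% upwards from day 0 to day 5. The shares were 39.5% and 7.31% from day 0 to day 7, and 2.04% and 29.0% from day 5 to day 7. With plain subtraction of the local background, 13.5% passed downwards and 11.2% upwards from day 0 to day 5. The shares were then 14.6% and 11.6% from day 0 to day 7, and 4.61% and 4.32% from day 5 to day 7. The uneven shares thus came with the normexp refit and not with plain subtraction.

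**Figure D2:**
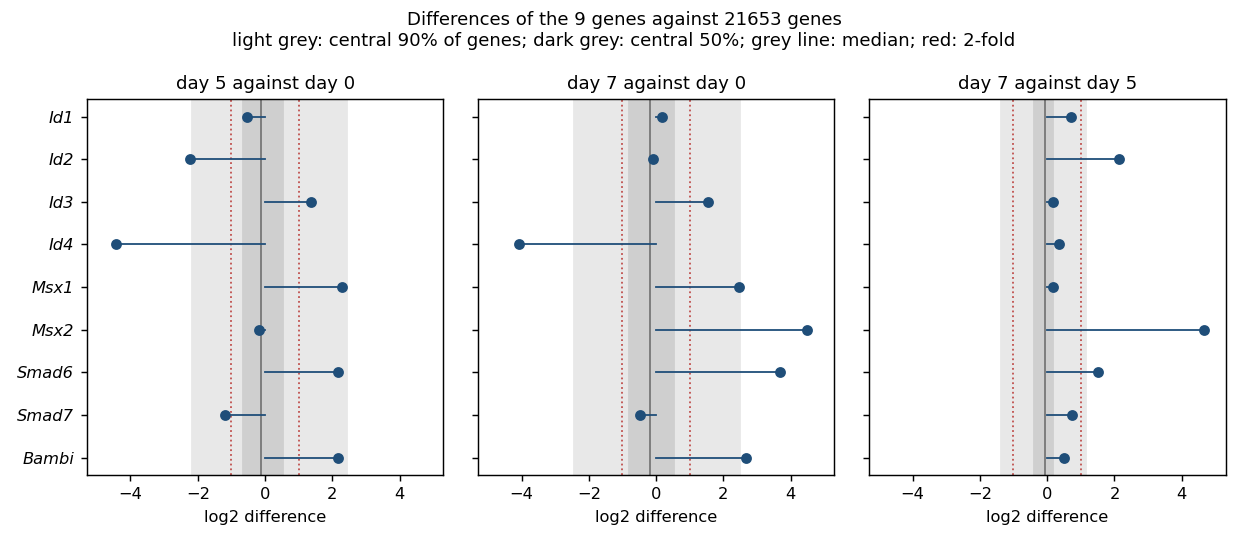
Log2 differences of the 9 genes between days (points), with 1 array per day, against the difference of all 21653 genes compared (bands holding 50% and 90% of genes, and their median). Red dotted lines mark the fold limit of 2. For day 7 against day 5 all 9 points lie above 0 and Msx2, at 4.67, lies farthest out, while for day 5 against day 0 the points lie on both sides, from -4.44 (Id4) to 2.29 (Msx1).

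A course that follows BMP4 in the medium would be lower on day 5 than on both other days. Id2 was the only member at least 2-fold lower on day 5 than on both, 1 of 9, where 1.32% of all genes (286) were. Both differences share the day 5 array. By rank alone, 5 of 9 members (Id1, Id2, Id4, Msx2 and Smad7) had their lowest level on day 5, the other 4 on day 0 and none on day 7. Of the 18479 genes measured on all arrays, 23.3% were lowest on day 5, 35.3% on day 0 and 41.4% on day 7. For Msx2 the gap between the lowest and the middle day was 0.18 and for Id4 0.36. On its second probe Id4 was lowest on day 7, and with normexp refitted Id1 was lowest on day 0. The highest level fell on day 7 in 6 of 9 members, against 23.3% of all genes, and Id2, Id4 and Smad7 were highest on day 0. For Id2 this held in the setting used and not on its second probe, with quantile normalisation, in the authors' deposited table, with the median over probes or with normexp refitted, where day 7 was highest.

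Genes whose course was nearest to that of Id1 and Msx2 were ranked by the distance between the 3 centred log2 levels, among 13941 named genes measured on all 3 arrays. For Id1 these were Ddhd1 (distance 0.026), Smap2 (0.029) and Gdf1 (0.031), and 1773 genes lay within 0.5, so its shallow course is shared widely. For Msx2 they were Zfp503 (0.163), Ctnna2 (0.186) and Tdo2 (0.307), and 7 genes lay within 0.5. With 3 points per gene these distances describe the course and nothing more. Zfp503 is also in the list of other BMP targets used below.

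The rest of the pathway was read from lists of its parts, whose counts are to be set beside the shares of all genes: 16.5% upwards and 16.1% downwards from day 0 to day 5, and 5.97% and 8.38% from day 5 to day 7. Among 11 measured BMP ligands, 3 passed the limit upwards and 3 downwards from day 0 to day 5, with a median of -0.02, and with normexp refitted none passed upwards and 6 downwards. Bmp4 itself had levels of 1.38, -1.31 and 2.00 on days 0, 5 and 7, so its own mRNA was 6.47-fold below day 0 on day 5, with a 9.91-fold gain by day 7. Bmp2, not well above background on day 0, had a day 5 signal at least 103-fold higher. For such genes the dim array was set at the lowest signal well above background, so the fold is a lower bound under the setting used only. With normexp refitted, Bmp2 did not pass the limit. Gdf3, a ligand of pluripotent cells, was 18.5-fold lower on day 5, and Bmp8b, known from germ cell induction, 9.37-fold lower. From day 5 to day 7, 4 ligands passed the limit upwards, among them Gdf6 at least 26.6-fold, Bmp6 8.99-fold and Bmp5 4.98-fold, and 3 downwards. A second Bmp6 probe gave a difference of 0.2 (log2) there. The course of Bmp4 mRNA thus had the shape of Id2, low on day 5 and high on days 0 and 7.

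Of 11 receptors and co-receptors, 6 passed the limit upwards and 2 downwards from day 0 to day 5 (median 1.19), against 4 and 4 with normexp refitted. The co-receptor Rgma was 24.7-fold higher, the type II receptor Bmpr2 4.73-fold and the co-receptor Rgmb 3.14-fold, and the endothelial co-receptor Eng was 7.16-fold lower. A second Rgmb probe gave 0.89 (log2), within the limit. From day 5 to day 7 none passed upwards and 1, Bmpr1b, downwards. Of 14 Smads and Smad regulators, 5 passed upwards on day 5 and none downwards. The count downwards was 1 with quantile normalisation, median scaling or the authors' deposited table and 3 with normexp refitted. Smad1, a Smad activated by BMP receptors, was 9.35-fold above day 0 on day 5 and 4.78-fold on day 7. Smad3, of the activin branch, was 2.37-fold and 2.60-fold above day 0. A second Smad3 probe gave differences of 0.89 and 0.92 (log2), within the limit. None of the 14 passed the limit from day 5 to day 7, and Smad1 was 1.95-fold lower at the end of that step.

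Secreted antagonists bind BMP outside the cell. Of 14 measured, 8 passed the limit upwards and 1 downwards from day 0 to day 5 (median 1.27), but several were dim. With the local background subtracted and an offset of 50 added, 3 passed it upwards, and with normexp refitted 2 did and 5 passed downwards. Cer1, an antagonist made by anterior endoderm, gained at least 4845-fold by day 5 and was then 205-fold lower on day 7. Bmper was 32.0-fold above day 0 on day 5 and 159-fold on day 7. On day 5 Twsg1 was 4.94-fold above day 0. From day 5 to day 7, 4 passed the limit upwards, among them Bmper (4.98-fold) and Fst (4.09-fold), which binds activin as well, and 3 downwards.

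Of 17 other genes known as BMP targets, 4 passed the limit upwards and 3 downwards from day 0 to day 5 (median -0.25), shares near those of all genes, and with normexp refitted 3 and 9 did. Prdm6 was 52.1-fold, Gata3 11.4-fold, Hey1 8.58-fold and Evx1 8.42-fold higher, and Cdx2 was 18.8-fold, Tbx3 8.29-fold and Gata2 7.44-fold lower. In the step to day 7, 6 of 17 passed it upwards and none downwards (median 0.57). The caudal gene Cdx2 was 119-fold higher, Zfp503 23.7-fold, the mesoderm and trophoblast factor Hand1 15.6-fold and Tbx3 11.2-fold. Cdx2, Tbx3 and Gata2, 3 of 17, were at least 2-fold lower on day 5 than on both other days, against 1.32% of all genes. Gata2 was still 2.57-fold below its day 0 level on day 7, and Cdx2 6.36-fold above.

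Of 12 basic helix-loop-helix genes that include partners of Id proteins, 3 passed the limit upwards and 2 downwards from day 0 to day 5 (2 and 7 with normexp refitted), and differences ran from -4.39 to 5.43. Mesp1, a factor of early mesoderm, was 43.2-fold, Twist1 6.68-fold and the E protein Tcf12 4.35-fold higher, and Tcf15 was 16.8-fold and Neurod1 at least 21.0-fold lower. The E proteins Tcf3 and Tcf4 were within the limit on their chosen probes in each comparison. Over all Tcf4 probes well above background, however, differences reached 2.45 (log2) from day 0 to day 5 and -2.09 from day 5 to day 7, so Tcf4 was not settled. Of 12 known activin and Nodal targets, by comparison, 10 were past the limit upwards on day 5 (median 5.85), among them Lhx1 (1066-fold) and Gsc (537-fold). On day 7, with activin A still at 30 ng/ml, 10 of 12 were at least 2-fold lower than on day 5 (median -2.12), among them Lefty1 (110.0-fold). Cer1 and Skil stand in more than 1 list.

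**Figure D3:**
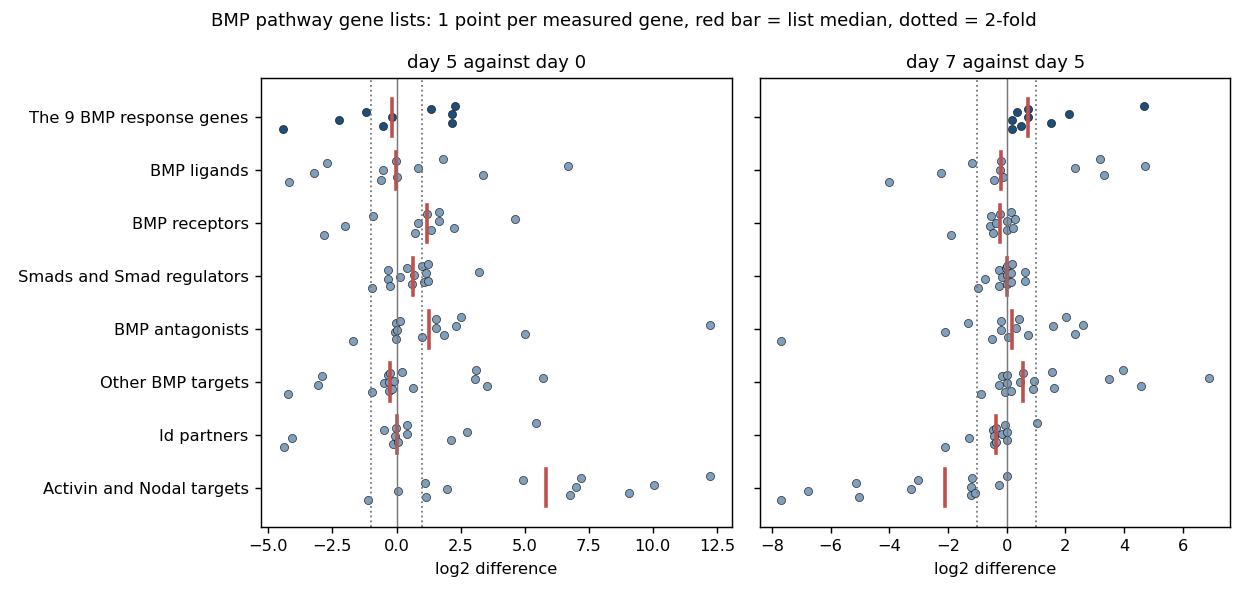
Log2 differences (horizontal axis) of the measured genes of 7 pathway lists and of the 9 BMP response genes, 1 point per gene, for day 5 against day 0 (left) and day 7 against day 5 (right), from 1 array per day. Red bars are list medians, dotted lines the fold limit of 2, genes dim on 1 day stand at their lower bound and genes dim on both days at 0. For day 7 against day 5 no BMP response gene and no other BMP target was past the limit downwards, while 10 of 12 activin and Nodal targets were.

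Markers of several cell types moved with the day 7 values. Their counts from day 5 to day 7 are to be set beside 5.97% of all genes upwards and 8.38% downwards. Summed over the list and given as multiples of the 75th percentile, 7 ES cell markers had 217, 8.33 and 10.54 on days 0, 5 and 7. From day 5 to day 7, 5 of the 7 were past the limit downwards and 1, Klf4, upwards, and Klf4 made up 8.62 of the day 7 sum. The 8 definitive endoderm markers had 8.85, 159 and 47.1. From day 5 to day 7, 4 of these 8 were past the limit downwards and 4 within it. Cer1 went from 43.7 to 0.21 and Gsc from 37.1 to 1.13 in that step. Foxa2 went from 19.5 to 15.7 and Sox17 from 28.4 to 18.4, within the limit. The 8 hepatic markers had 0.603, 10.9 and 33.0. From day 5 to day 7, 5 of the 8 were past the limit upwards, with Afp 556-fold and Ttr 39.6-fold higher, and 1, Rbp4, was 2.40-fold lower. Rbp4 made up 9.70 of the day 5 sum. Alb, the defining gene of hepatocytes, was not well above background on days 0 and 7. Extraembryonic endoderm markers had 3.28, 9.91 and 80.7, with 6 of 8 past the limit upwards from day 5 to day 7. Mesenchyme markers had 3.09, 3.17 and 22.3 (7 of 8 upwards in that step), and cardiac and lateral mesoderm markers 0.880, 1.23 and 10.9 (7 of 8). Endothelial markers had 0.579, 22.4 and 15.2 (3 of 8 higher), trophoblast markers 9.58, 16.1 and 14.004 (3 of 8 higher and 4 lower), and neural and surface ectoderm markers 1.13, 3.01 and 3.76 (none of 7 higher). With normexp refitted, 29% of all genes passed upwards in that step and 2.04% downwards. Counts higher were then 5 for endothelial and 4 for neural and surface ectoderm markers, and 2 trophoblast markers were lower. Extraembryonic endoderm, mesenchyme and cardiac counts stayed at 6, 7 and 7. Flt1 made up 21.2 of the endothelial sum on day 5 and 13.1 on day 7. Another Flt1 probe differed by 0.24 (log2) between days 5 and 0. Nes made up 2.76 of the neural and surface ectoderm sum on day 5 and 3.51 on day 7. Krt7 made up 12.5 of the trophoblast sum on day 5, and Hand1 8.46 of it on day 7. From day 0 to day 5, 3 endothelial markers passed the limit upwards and 2 downwards. For day 7 against day 5, another probe of the mesenchyme marker Col3a1 gave 0.17 (log2), against 6.75 on the chosen one. Probes of the cardiac marker Tbx20 ran from 0.13 to 1.60 there. Hand1, Twist1, Cdx2, Gata3, Gsc and Cer1 stand in marker lists and in the pathway lists above. Msx2, Id2, Smad6, Hand1, Cdx2, Zfp503 and Tbx3 were among the genes higher in the same day 7 sample as the mesenchyme, mesoderm and extraembryonic endoderm lists. Hand1 and Cdx2 also stand in the trophoblast list, which had 3 of 8 higher and 4 lower. Hand1 is itself a member of the mesoderm list, so it is no separate reading beside that list. The part of such cells in these values was not tested.

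**Figure D4:**
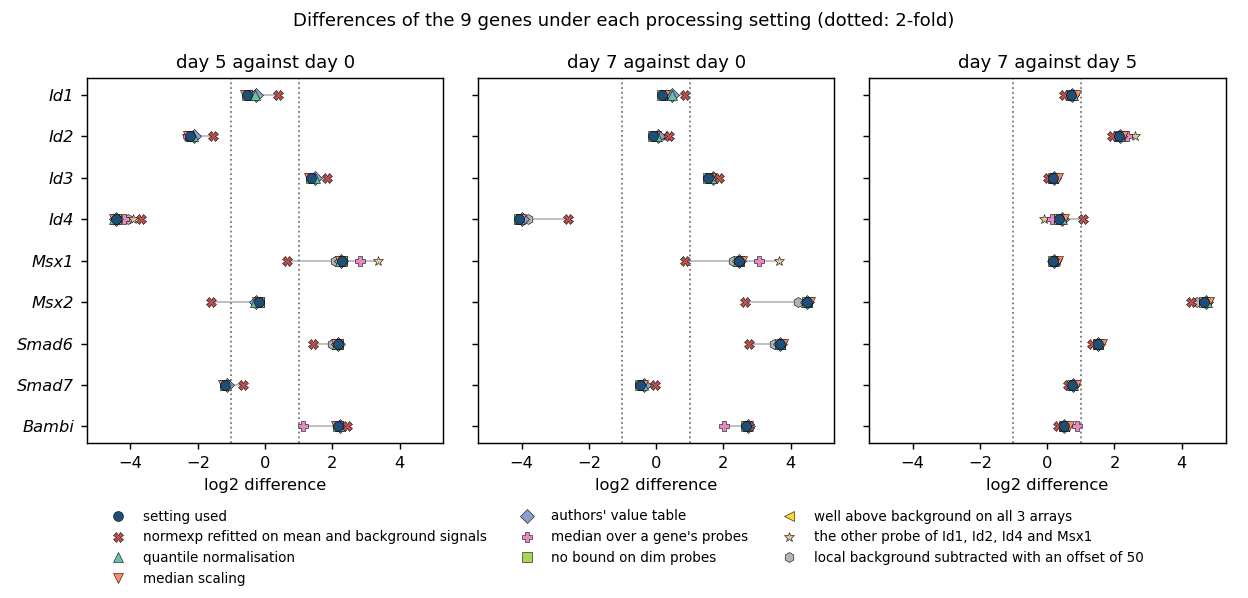
Log2 differences of each of the 9 genes for the 3 comparisons of days (vertical axis lists the genes, horizontal axis the difference), under the setting used and under each alternative, with dotted lines at the fold limit of 2 and 1 array per day. The normexp refit (red crosses) lies apart from the value used for several genes, among them Id1 on day 5 against day 0 at 0.37 in place of -0.53, Msx1 at 0.66 in place of 2.29 and Msx2 at -1.62 in place of -0.18.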

How the data were processed

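RNA of 3 samples (1 array per day) was labelled with Cy3 and hybridised to 1-colour Agilent arrays. The authors deposited Agilent Feature Extraction output (version 10.5.1.1, per the file headers), in which the processed signal is an intensity already corrected for background, and a value table on a log2 scale with a median of 7.17 on each array, made by a scaling for which the sources used here give no detail. It correlated with the log2 processed signals at r of 0.9998 or above and served as an alternative. Control spots and spots marked as outliers (149, 104 and 131) were left out, log2 intensity was taken minus the array's 75th percentile, and spots of a probe were averaged. Each gene was read from 1 probe, taken first by the number of arrays where it was well above background and then by its mean level. A probe counted as well above background where more than 50% of its spots were. Gene symbols came from RefSeq by accession (24844 probes) or symbol (6045), otherwise from the files (10285). Probe positions are those of the files (mm9).

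Each difference is a log2 difference of 2 arrays, called at 2-fold, and no test was possible. The procedure was tested on simulated data. Named genes are all members with every probe, up to 4 genes per direction of each pathway list, Foxa2, and the 3 nearest courses to Id1 and Msx2. Members and lists were chosen with earlier results of these data known. Alternatives were 8 planned settings and 2 more, the second probe of Id1, Id2, Id4 and Msx1 and a plain subtraction of local background, chosen after seeing the data. Python 3.11.15 (pandas 2.3.3, numpy 2.4.6) and R 4.3.3 with limma 3.58.1 were used. Proteins were not analysed here, and promoters of Id1, Smad7 and Bambi were not used.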

Additional observations from a re-analysis of the deposited data

How the results depend on the processing

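No paired analysis was possible because each day has 1 array. For the counts of members past the fold limit, 69 of 70 values under 10 alternatives were within 1.5 times the value reported. Each member's chosen probe was well above background on all 3 arrays. The alternatives without a bound on dim probes, and with only genes well above background on all 3 arrays, therefore could not change any member count or difference. Their values were fixed in advance and are no sign of stability, although they are counted among the 69. The exception was the refit of normexp, under which 3 members in place of 1 (Id2, Id4 and Msx2) were at least 2-fold lower on day 5 than on both other days. A stable count did not always mean the same genes: under that refit Msx2 took the place of Smad7 among the 3 lower on day 5 than on day 0, and Msx1 left those higher. That fit placed the background mean at -1242 units on day 0, -12.7 on day 5 and -344 on day 7, so by construction it adds a different constant to each array, and the median of all genes for day 5 against day 0 moved from -0.11 to -0.61. Plain subtraction of the local background gave -0.21 and left 1 such member. No difference past the limit changed sign. Among differences within the limit in the setting used, Msx2 on day 5 against day 0 ranged from -1.62 to -0.18, Id1 there from -0.59 to 0.37, Id2 on day 7 against day 0 from -0.10 to 0.38, and Id4 on day 7 against day 5 from -0.08 to 1.06. Msx2 on day 7 against day 5 lay between 4.27 and 4.80, Id2 on day 5 against day 0 between -2.33 and -1.54, Smad7 there between -1.26 and -0.65, and Bambi there at 1.12 when both probes entered a median. Of all differences of members, 172 values moved by less than the spread of 2 spots and 71 by more, and of counts over the other lists 850 stayed within 1.5 times and 110 did not. The 172 hold values that could not move, from the 2 settings fixed in advance and from members that a change of probe did not touch. That tally is therefore no measure of stability. With a 3-fold limit, 9.87% of all genes were higher and 8.28% lower on day 5 than on day 0. With 1 array per day, the spread between cultures is unknown.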

Other observations

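A pair of further genes of the marker lists shared the low day 5 of Id2, and both were picked after their values were seen. The pluripotency factor Klf4 had levels of 5.70, 0.19 and 3.11 on days 0, 5 and 7. The laminin chain gene Lama1, of basement membranes, had 0.71, -2.95 and 1.91. Unlike Id2, they did not return to the day 0 level: on day 7 Klf4 was 6.05-fold below day 0 and Lama1 2.30-fold above it. Among the marker lists, Sox7, Col1a1, Nkx2-5, Pecam1 and Tek were also at least 2-fold lower on day 5 than on days 0 and 7, as was Cdx2, described above. With Klf4 and Lama1 counted, these were 1 of 7 ES cell, 2 of 8 extraembryonic endoderm and 2 of 8 endothelial markers. Mesenchyme, cardiac and trophoblast lists each had 1 of 8, and the other marker lists had none. Of all genes, 1.32% (286) had this course. For Sox7 and Col1a1 the course held on the chosen probe alone. Their second probes gave -0.12 and -0.64 (log2) for day 5 against day 0, within the limit.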
